A study of Mus musculus with 6 samples.

Results

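Antisense genes are RNA genes transcribed from the DNA strand opposite to another gene, and they were examined here together with the protein-coding genes they overlap, in HL-1 cells after silencing of Malat1. A gene was included when its Ensembl biotype was antisense and its mean over the 6 libraries was at least 20 normalized counts, so the members were selected on their measured level. Because that mean takes in both groups, a gene could pass through 1 group alone: 34 members had an LNA Control mean under 20, and 4 an LNA Malat1 mean under 20. This gave 199 of the 1213 antisense genes and of the 21269 genes in the deposited table. Their partners were all protein-coding genes on the opposite strand whose span overlaps the member by at least 1 base, and 184 of the 199 members had at least 1, which gave 244 pairs with 242 partners. HL-1 is a mouse cell line of atrial cardiomyocyte origin. Seeding preceded transfection by 24 hours in both groups, and each received 50 nM of an LNA gapmer, a short DNA strand with locked nucleic acid ends that directs cleavage of the RNA it pairs with. Cells were collected 48 hours later. One group received LNA Control and the other LNA Malat1, with 3 libraries each, and all come from this single cell line. Nothing in the labels says whether the 3 libraries of a group are separate cultures, so the p-values measure the spread between these libraries, which may be technical.

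Antisense transcription is common around mammalian genes. Many antisense RNAs begin near the promoter of a coding gene and run away from it, others begin within the gene or beyond its end, and most are present at low levels and are degraded in the nucleus by the RNA exosome and its cofactors. A few act on their sense gene in cis. The best studied is Airn, an RNA that starts inside Igf2r on the opposite strand and is needed to silence Igf2r on the paternal chromosome in imprinted tissues.

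Malat1, the targeted nuclear RNA, was at 5051, 5197, and 4369 normalized counts in LNA Control replicates 1 to 3 against 2833, 2792, and 2732 in LNA Malat1 replicates 1 to 3. It was lower in every LNA Malat1 library (log2 fold change -0.80 ± 0.07 SE, adjusted p = 7.5e-06). Library totals were 4758777 to 4921406 normalized counts. The LNA Malat1 libraries listed 757 to 924 genes of the table at 0, and the LNA Control libraries 1256 to 2031, so weakly expressed genes were detected more often in LNA Malat1. LNA Malat1 replicates 1 and 3 differed by less than the sampling noise over all genes, with a chi-square of 0.949 per gene, and were counted as 1 sample in an alternative fit. Over the 1754 genes with the highest counts they differed by slightly more than it, at 1.095 per gene (chi-square test, p = 0.003). Of the 13 atrial cardiomyocyte markers, 11 have a row: Ryr2, Gata4, Tnnt2, Actc1, and Tbx5 had means of 442.3 to 2395, and Nkx2-5 and Tnni3 of 201.2 and 183.3. The atrial myosin light chains Myl7 and Myl4 were low, with means of 24.8 and 41.2, and the atrial myosin heavy chain Myh6 was at 0 to 7 in every library. The natriuretic peptide gene Nppb was at 0 in LNA Control and 6 to 11 in LNA Malat1, and Nppa and Sln have no row. Of the 4 fibroblast markers, 3 have a row. The collagens Col1a1 and Col3a1 had means of 2023 and 2268, Pdgfra had 38.7, and Dcn has no row. Summed per library, the atrial markers with a row held 5309 to 5589 in LNA Control and 5036 to 5212 in LNA Malat1. The fibroblast ones held 4329 to 5078 and 3845 to 4016. Of the 4 endothelial markers, 2 have a row, and their sums were 19 to 28 and 32 to 35. The leukocyte markers with a row summed to 32 to 36 in LNA Control and 54 to 81 in LNA Malat1. Of these, Cd68 and Csf1r were at log2 fold changes of 0.79 ± 0.23 and 1.19 ± 0.31 (limma, adjusted p = 0.023 and 0.013). The part of these shifts in the results was not tested. In bulk RNA such as this, a change in the cells present and a change in RNA per cell cannot be told apart.

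The use of strand in counting bears on every value below, because the sense and the antisense gene of a pair occupy the same bases. The RNA was made into libraries with a kit that keeps strand, and reads falling on several genes were dropped by the authors. Coding and long noncoding genes of GENCODE M21 were checked if they had a minimum exonic length and no exon overlap on their own strand. Of these, 140 have exons that lie wholly under exons of the other strand. Among the 140, 62 have a row in the table, 59 had a mean of at least 1, and 31 a mean of at least 5. If the exons used in counting were the same, such genes can collect reads only if the strand of the read was used. The authors used an Ensembl release, whose exons may differ from these, and that was not tested. Members of this kind were Gm43118 (mean 39.0), opposite Pitpnb, and Gm42457 (mean 20.5), opposite Mfsd14a, and neither was called. Among all members a median of 17.3% of the exonic bases lay opposite an exon of another gene.

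The members were weakly expressed. Their means ran up to 533.3 normalized counts with a median of 39.0, against a median of 240.2 for the 242 partners, and 126 members lay below 50. On a per-length scale the median was 21 normalized counts per kilobase of exon for members and 55.3 for the 223 partners that could be tested. Within tested pairs the antisense level per kilobase was at the median 35.3% of the sense level. It exceeded the sense level in 60 of 225 pairs and was under 10% of it in 23. The members nearest the limit were Zmiz1os1 and Peak1os (both at the limit itself) inside it and 1700121C08Rik (19.83) and Rbm3os (19.67) outside it. Over the members, replicates of one group differed by no more than counting noise, with a chi-square between 0.905 and 1.09 per member in all 6 replicate pairs. Over all genes this did not hold for LNA Control, where it was 1.77 to 4.18 per gene, against 0.949 to 1.16 in LNA Malat1. LNA Control replicate 3 had the fewest genes at 0 of its group, 1256 against 1981 and 2031. It was also the deepest library, at an estimated 5592995 reads on genes against 4512256 and 4531998. The LNA Malat1 libraries, with 757 to 924 genes at 0, had an estimated 4771910 to 5301385 reads.

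More members rose than fell after LNA Malat1. A call required a change of at least 1.5-fold together with a Benjamini-Hochberg adjusted p of 0.05 or less from limma, fitted to the 15650 genes that passed the level filter. Of the 199 members, 60 rose and 1 fell, or 30.2% and 0.5%, beside 8.00% higher and 2.92% lower over all genes tested. Of the 60, 19 had an LNA Control mean under 20 and so are members only through their LNA Malat1 values. Chosen instead by an LNA Control mean of at least 20, an alternative added after seeing the data, 168 antisense genes had 41 up, 1 down, and a median log2 fold change of 0.34. The median log2 fold change of the members was 0.41, and that of all genes tested was 0.02. The groups were separate, with LNA Malat1 above LNA Control in 110 members and below it in 8, where 20.5% and 20.8% of all genes did so. Summed over the members, LNA Control libraries held 10642, 10346, and 11199 normalized counts and LNA Malat1 libraries 13565, 13136, and 13891. This sum is a description only, because it includes the 34 members that passed the level limit through LNA Malat1 alone. No sum was taken over the genes chosen by LNA Control mean. The direction of the median held under each scaling, but quantile normalization, which gives all libraries the same distribution, lowered it to 0.22 and left 39 members higher and 5 lower, the 39 all among the 60. Without LNA Control replicate 3, 73 members were higher and 1 lower. Of the 60, 39 were also called in each of the 6 fits that left out a library.

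**Figure D1:**
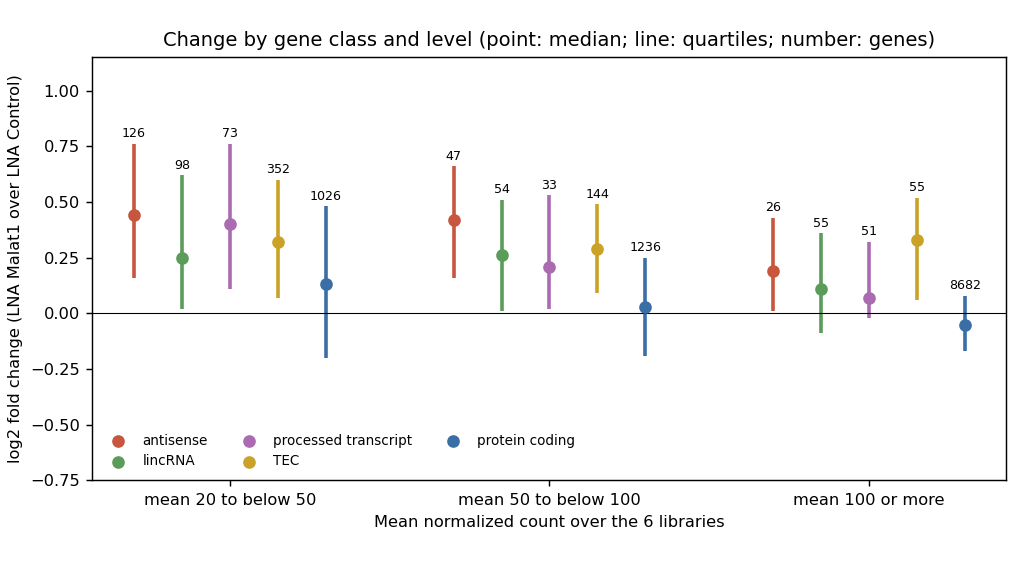
The x axis groups genes by mean normalized count over the 6 libraries and the y axis gives the log2 fold change of LNA Malat1 over LNA Control; points are medians, lines span the quartiles, and the numbers count genes. On the deposited values shown, the antisense median is 0.44 at means of 20 to below 50, 0.42 at 50 to below 100, and 0.19 at 100 or more. Protein-coding medians are 0.13, 0.03, and -0.05.

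On the deposited values, level moved with this result. Among members with a mean of 20 to below 50, 42 of 126 rose with a median of 0.44, among those of 50 to below 100, 14 of 47 rose with a median of 0.42, and among those of 100 or more, 4 of 26 rose and 1 fell with a median of 0.19. Protein-coding genes in the same level classes had medians of 0.13, 0.03, and -0.05, and 19.1%, 8.7%, and 1.5% of them rose. The medians did not fall with level under quantile normalization. There they were 0.21, 0.33, and 0.23 for members and -0.1, -0.06, and 0.0 for protein-coding genes. Other noncoding classes had medians above 0 as well. Of the 207 lincRNA genes with a mean of at least 20, 37 rose and 4 fell (median 0.23), of 157 processed transcripts 36 rose and 2 fell (0.22), and of 551 genes of the class TEC, loci whose status as genes is still to be tested by experiment, 73 rose and 6 fell (0.31). Of 48 bidirectional promoter lncRNA genes, which start beside a coding gene on the opposite strand, 10 rose and 1 fell (0.32). The order of the classes changed with level: at means of 20 to below 50 the bidirectional class had a median of 0.53, and at 100 or more TEC had 0.33 and the bidirectional class 0.20. No difference between the classes was tested. The 363 antisense genes below the limit, with means of 5 to below 20, had a median of 0.53, and 65 rose and 0 fell by limma, although 4 were lower at an unadjusted p under 0.05. With quantile normalization that median was 0.06. Whether the greater detection of weak genes in the LNA Malat1 libraries contributes to these medians was not tested.

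The members of largest change are given next, and 8 of these 10 had an LNA Control mean under 20. The largest change was that of Gm49774 (ENSMUSG00000116657, chromosome 17, 27545707 to 27556518, minus strand, mm10), which runs away from the start of Hmga1 and shares 22 bases with it. It was at 7, 10, and 6 normalized counts in LNA Control against 41, 34, and 40 in LNA Malat1. All LNA Malat1 libraries lay far above LNA Control (log2 fold change 2.20 ± 0.26 SE, adjusted p = 5.2e-05). Hmga1, an architectural chromatin protein that bends AT-rich DNA, was at 54, 46, and 50 in LNA Control against 50, 53, and 51 in LNA Malat1, and its groups overlapped (0.04 ± 0.14, adjusted p = 0.86). The antisense gene rose relative to Hmga1 by 2.16 ± 0.28 on the log2 scale (adjusted p = 6e-05).

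In Gm10687 (chromosome 9, 44122186 to 44134485, minus strand) the arrangement was the same, with 17 bases shared with Mcam, a cell adhesion molecule also called CD146. The antisense gene was at 23, 21, and 16 in LNA Control against 45, 41, and 64 in LNA Malat1, with no overlap (1.27 ± 0.22, adjusted p = 0.001). Mcam was at 1008, 1023, and 879 and at 1006, 1029, and 985, and its groups overlapped (0.06 ± 0.06, adjusted p = 0.53). Rsf1os2 (chromosome 7, 97650010 to 97696828, minus strand) shares 195 bases with the start of Clns1a, a chaperone in the assembly of spliceosomal particles, and reaches beyond the end of Rsf1, a chromatin remodeling subunit. It was at 36, 24, and 41 in LNA Control against 96, 79, and 96 in LNA Malat1 (1.43 ± 0.19, adjusted p = 0.00014). Neither partner was called, with Clns1a at -0.06 ± 0.06 and Rsf1 at 0.18 ± 0.09.

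The bases around the starts of 4 such pairs are given here. The following 300-base windows are RefSeq promoter sequences (GRCm38.p6), each from 250 bases before to 50 after a start site and written 5′ to 3′ on the strand of the named gene, with the bases that lie in both genes of the pair in capitals. They are shown because the antisense gene rose and the coding gene that starts there was not called or fell. The overlap with A230072E10Rik runs on past the Fam120c window, and the RefSeq window of A230072E10Rik itself holds 0 shared bases.
Hmga1, chr17:27556324-27556623, plus strand, shared with Gm49774: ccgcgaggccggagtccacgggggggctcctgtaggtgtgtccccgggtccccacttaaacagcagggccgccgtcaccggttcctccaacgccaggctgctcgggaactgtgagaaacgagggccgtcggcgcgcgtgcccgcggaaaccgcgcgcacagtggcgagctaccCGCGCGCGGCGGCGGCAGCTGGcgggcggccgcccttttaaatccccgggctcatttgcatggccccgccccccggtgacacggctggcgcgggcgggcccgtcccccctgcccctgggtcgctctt
Gm10687, chr9:44134436-44134735, minus strand, shared with Mcam: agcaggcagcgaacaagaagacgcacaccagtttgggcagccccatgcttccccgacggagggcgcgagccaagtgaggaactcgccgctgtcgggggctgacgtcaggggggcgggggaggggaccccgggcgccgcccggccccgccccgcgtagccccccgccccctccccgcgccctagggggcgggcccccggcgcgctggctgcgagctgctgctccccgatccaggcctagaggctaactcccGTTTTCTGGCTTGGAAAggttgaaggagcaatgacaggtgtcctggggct
Rsf1os2, chr7:97696572-97696871, minus strand, shared with Clns1a: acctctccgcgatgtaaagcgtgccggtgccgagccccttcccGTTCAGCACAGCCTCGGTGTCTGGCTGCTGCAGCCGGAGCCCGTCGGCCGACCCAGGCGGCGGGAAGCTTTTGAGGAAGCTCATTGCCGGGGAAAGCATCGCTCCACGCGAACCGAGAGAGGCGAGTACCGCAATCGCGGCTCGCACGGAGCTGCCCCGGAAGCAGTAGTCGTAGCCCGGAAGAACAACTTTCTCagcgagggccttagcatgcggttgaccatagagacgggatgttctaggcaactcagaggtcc
Fam120c, chrX:151343973-151344272, plus strand, shared with A230072E10Rik: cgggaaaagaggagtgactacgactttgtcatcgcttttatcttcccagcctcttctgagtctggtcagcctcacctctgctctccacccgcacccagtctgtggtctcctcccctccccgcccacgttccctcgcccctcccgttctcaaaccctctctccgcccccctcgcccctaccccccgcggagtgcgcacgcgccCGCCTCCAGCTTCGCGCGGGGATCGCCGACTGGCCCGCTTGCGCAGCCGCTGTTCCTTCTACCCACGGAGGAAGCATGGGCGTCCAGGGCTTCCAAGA

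The windows hold 22, 17, 195, and 98 shared bases and 40, 28, 30, and 26 CG dinucleotides, where the median RefSeq window of the mouse has 7. The letters GGGCGG, searched on both strands, occur in the Hmga1, Gm10687, and Fam120c windows and not in that of Rsf1os2. Neither CCAAT nor TATAAA, on either strand, occurs in any of the 4. Of these windows, 2 are those of the coding gene. The window of A230072E10Rik itself, not printed, has only 2 CG dinucleotides, holds CCAAT, and lacks GGGCGG. Among members, 99 had 125 windows in RefSeq. GGGCGG occurs in 44.0% of these and in 35.7% of all 32851 windows, CCAAT in 33.6% and 37.4%, and TATAAA in 12% and 13.6%. The median number of CG dinucleotides was 26 in the 37 windows of members that rose and 13 in the 88 windows of the others. The 37 windows belong to 32 members and the 88 to 67, and a member with several windows counts once for each. No median per member was taken. These are counts of letters and carry no test.

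The other large rises were spread over the kinds of partner. Gm36569 was at 12, 11, and 18 in LNA Control against 46, 43, and 54 in LNA Malat1 (1.75 ± 0.23, adjusted p = 0.00013). Its head-to-head partner Gask1b, a Golgi kinase-like protein, was at 910, 914, and 898 and at 1075, 1067, and 1064, above LNA Control in every library but under the 1.5-fold limit (0.24 ± 0.05, adjusted p = 0.0027). Mccc1os was at 12, 12, and 16 and at 38, 44, and 49 (1.64 ± 0.22, adjusted p = 0.00013), and its partner Mccc1, a subunit of the carboxylase that degrades leucine, stayed under the limit too, at 333, 344, and 335 and at 386, 391, and 391 (0.21 ± 0.05, adjusted p = 0.012). In both pairs all LNA Malat1 libraries lay above LNA Control for the antisense and for the sense gene. The second partner of Mccc1os, Ccdc144b, was at 0 to 3 and was not tested.

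Gm17034 lies wholly within Hk2, the gene of hexokinase 2, with no exonic base in common. The antisense gene was at 16, 17, and 22 in LNA Control against 53, 62, and 58 in LNA Malat1 (1.61 ± 0.19, adjusted p = 5.3e-05). Hk2 was lower in every LNA Malat1 library, at 842, 807, and 761 against 689, 676, and 677, within the 1.5-fold limit (-0.24 ± 0.05, adjusted p = 0.0054). The pair therefore separated by 1.85 ± 0.20 on the log2 scale (adjusted p = 2.2e-05).

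Gm36266, at 15, 13, and 14 and at 32, 33, and 45, rose by 1.31 ± 0.22 (adjusted p = 0.00083). It starts opposite Pcolce, an enhancer of procollagen processing, which was at -0.16 ± 0.06 (adjusted p = 0.069). C130013H08Rik, at 24, 14, and 20 and at 54, 47, and 41, rose by 1.27 ± 0.22 (adjusted p = 0.0011), and the arginine methyltransferase Prmt6 opposite it was at 0.11 ± 0.13 (adjusted p = 0.58). The remaining pair of antisense genes among the 10 largest changes faced a histone demethylase and a protein methyltransferase. 4930599N23Rik was at 16, 13, and 18 and at 39, 49, and 30 (1.26 ± 0.23, adjusted p = 0.0017) with Kdm7a at 0.27 ± 0.11 (adjusted p = 0.1), and Gm15983 was at 20, 21, and 13 and at 52, 42, and 35 (1.22 ± 0.23, adjusted p = 0.0021) with Eef2kmt at 0.24 ± 0.14 (adjusted p = 0.22). None of the tested partners of these 10 members was called, and each of the 10 was called with any 1 library left out.

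**Figure D2:**
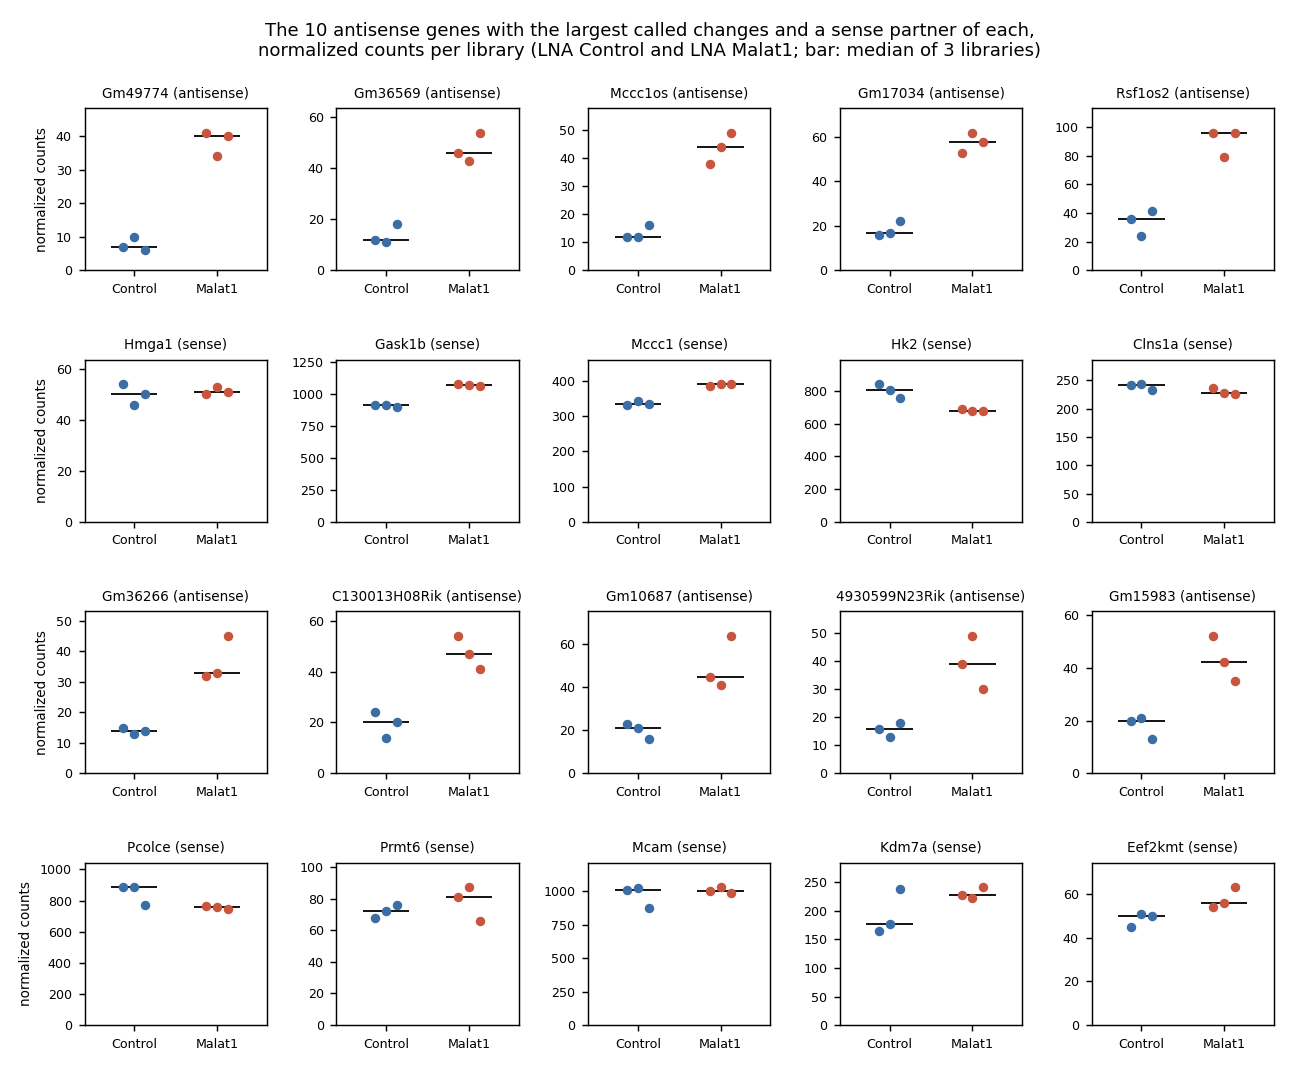
Each panel plots normalized counts (y axis) in the 3 LNA Control and the 3 LNA Malat1 libraries for one of the 10 antisense genes with the largest called changes, with a sense partner below it; bars are medians and every axis starts at 0. The antisense groups do not overlap in any panel, for example 6 to 10 against 34 to 41 for Gm49774, and Hmga1 below it is at 46 to 54 and 50 to 53.

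Among the members with a mean of 100 or more, 5 were called, and they are named here after their values were seen. A630072M18Rik was at 185, 190, and 199 in LNA Control against 303, 293, and 301 in LNA Malat1 (0.64 ± 0.06, adjusted p = 1.4e-05). It lies within Rsbn1l, and 95.05% of its exonic bases face an exon of the other strand, which leaves 268 bases free. Rsbn1l was lower in every LNA Malat1 library, at 1182, 1322, and 1266 against 920, 923, and 910 (-0.45 ± 0.05, adjusted p = 6.6e-05), within the 1.5-fold limit, and the pair separated by 1.09 ± 0.08 (adjusted p = 4.7e-07). 1600020E01Rik, at 118, 119, and 125 against 200, 192, and 197, rose by 0.70 ± 0.08 (adjusted p = 2.8e-05) opposite the start of Pcbp1, an RNA-binding protein, at -0.11 ± 0.06. Gm17435, at 89, 81, and 95 against 166, 163, and 151, rose by 0.85 ± 0.09 (adjusted p = 3.6e-05), and the Mediator subunit gene Med26 that it overlaps at its end was at 0.16 ± 0.08. 1700008J07Rik rose by 0.72 ± 0.12 (adjusted p = 0.00067), and the chromatin remodeler Srcap at its start was at 0.38 ± 0.08 (adjusted p = 0.0026), in the same direction and under the fold limit.

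The fifth was the 1 member that fell. 4933431E20Rik (chromosome 3, 107888850 to 107896213, minus strand) was at 164, 151, and 178 in LNA Control against 97, 94, and 100 in LNA Malat1, with no overlap (-0.75 ± 0.09, adjusted p = 7e-05). Gstm5, a glutathione transferase that starts opposite it, was also lower in every library, at 63, 64, and 66 against 49, 49, and 54, and did not pass the test (-0.34 ± 0.13, adjusted p = 0.065). Another pair of members, Rab10os and Dnah2os, passed the adjusted p without the fold limit, at -0.30 ± 0.09 and -0.32 ± 0.10. Rab10, a small GTPase of vesicle transport, was at -0.30 ± 0.05 beside Rab10os, so that this pair differed by 0.00 ± 0.11 (adjusted p = 0.98).

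None of the 5 members with the highest means was called. Airn was at 477, 491, and 515 in LNA Control against 631, 461, and 625 in LNA Malat1, where replicate 2 was below LNA Control and the other two above it (0.20 ± 0.10, adjusted p = 0.16). Brip1os was at 479, 466, and 487 and at 549, 563, and 530, above LNA Control in each library but within the limit (0.20 ± 0.05, adjusted p = 0.014). It spans Ints2, a subunit of the Integrator complex, at 0.31 ± 0.06, and reaches Med13, a Mediator subunit, at 0.01 ± 0.07. Gm26737 was at 0.04 ± 0.06, and 6330403L08Rik, opposite the growth factor gene Pdgfa (0.07 ± 0.06), was at 0.35 ± 0.07 (adjusted p = 0.0025), under the fold limit. A830082K12Rik and the nuclear receptor gene Nr2f1 at its start were at -0.17 ± 0.06 and -0.16 ± 0.06, and neither passed the test.

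The partners divided evenly. Of the 223 tested, 8 rose and 8 fell, 3.6% each, beside 8.00% and 2.92% of all genes tested. Their median log2 fold change was -0.03. Among all protein-coding genes with a mean of at least 20, the shares were close to those of the partners, at 3.9% and 3.7%, and the median was also -0.03. In 60 of the 62 tested pairs with a risen antisense gene the partner was not called, in 2 it fell, and in 0 it rose. At an unadjusted limma p under 0.05, the partner was higher in 16 of the 62 and lower in 17. Across the 225 tested pairs the changes of antisense and sense gene had a Pearson correlation of -0.01 and a Spearman correlation of 0.07, and they had the same sign in 104 pairs. The points share all 6 libraries, and BC037039 alone stands in 19 of the 244 pairs, so this is a description without a test. In the 41 tested pairs whose exons do not overlap, the Pearson correlation was 0.17.

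**Figure D3:**
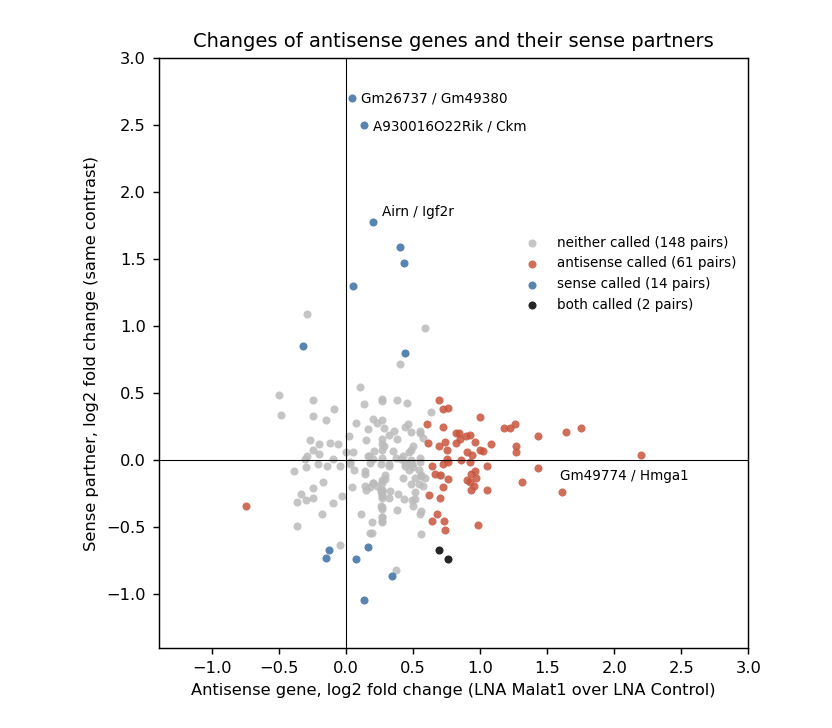
Each of the 225 points is a pair, with the log2 fold change of the antisense gene on the x axis and that of its sense partner on the y axis (LNA Malat1 over LNA Control); colors show which gene was called. The 61 pairs with only the antisense gene called spread along the x axis near 0 on the y axis, the 14 with only the sense gene called spread along the y axis, and 2 pairs with both called lie at lower right.

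Tested on the ratio of the genes within each library, the antisense gene rose relative to its partner in 83 of 225 pairs and fell in 8, which is 36.9% and 3.6%. Over all 561 tested pairs of an antisense and a coding gene, these pairs included, the shares were 27.6% and 2.50%, and 20.4% of all 2209 opposite-strand pairs of any class were called in either direction. The median difference of the 225 was 0.48. Leaving out LNA Control replicate 3 or LNA Malat1 replicate 1, the extremes among the 6 such fits, gave 87 and 62 pairs.

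Both genes were called in 2 pairs, in opposite directions each time. A230072E10Rik, on the X chromosome, was at 35, 42, and 57 in LNA Control against 69, 68, and 77 in LNA Malat1 (0.69 ± 0.17, adjusted p = 0.01), and Fam120c, whose start it overlaps by 672 bases, was at 329, 317, and 323 and at 199, 202, and 207 (-0.67 ± 0.06, adjusted p = 7.2e-06). Neither gene had overlapping groups, and the pair separated by 1.36 ± 0.18 (adjusted p = 6.6e-05). Gm16279 was at 33, 25, and 36 and at 47, 52, and 62 (0.76 ± 0.18, adjusted p = 0.0084), and 2310061I04Rik, at 222, 154, and 178 and at 90, 119, and 121, fell by 0.74 ± 0.14 on the log2 scale (adjusted p = 0.0018). Here too the groups did not overlap, and the change of the antisense gene differed from that of the partner (adjusted p = 4.1e-05). The rises were near the limit: A230072E10Rik was no longer called without LNA Control replicate 1 (0.53) or LNA Malat1 replicate 3 (0.63), and Gm16279 not without LNA Malat1 replicate 3 (0.66). With quantile normalization neither rise was called (0.55 and 0.58). The falls of both partners and both differences were called in all 6 fits that left out a library.

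In another set of pairs the sense gene moved and the antisense gene did not. Igf2r, the receptor that carries mannose 6-phosphate proteins and clears insulin-like growth factor 2, was at 114, 115, and 123 in LNA Control against 413, 402, and 397 in LNA Malat1. The groups were far apart (1.78 ± 0.07, adjusted p = 3e-08), while those of Airn, given above, overlapped. Airn fell relative to Igf2r by 1.58 ± 0.11 on the log2 scale (adjusted p = 3e-07), and no exonic base is shared by the pair. Per kilobase of exon, the level of Airn was 1090.2% of that of Igf2r in LNA Control and 366.6% in LNA Malat1.

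Ckm, the muscle creatine kinase, was at 3, 0, and 1 in LNA Control against 11, 11, and 9 in LNA Malat1 (2.50 ± 0.53, adjusted p = 0.004), and A930016O22Rik within it was at 29, 20, and 25 and at 27, 31, and 23. The LNA Control counts of Ckm are at or near 0, so the fitted fold depends on the added count of 1. The same holds for Gm49380, at 4, 0, and 7 and at 21, 19, and 24 (2.70 ± 0.61, adjusted p = 0.0055), opposite Gm26737. Gm49380 overlaps the gene of the ubiquitin ligase Rnf26 on its own strand, so that reads of these genes may have been dropped or split in counting, and Rnf26, the other partner of Gm26737, was at -0.20 ± 0.13. Antisense relative to sense fell by 2.37 ± 0.52 and 2.66 ± 0.59 in these pairs (adjusted p = 0.0031 and 0.0034).

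**Figure D4:**
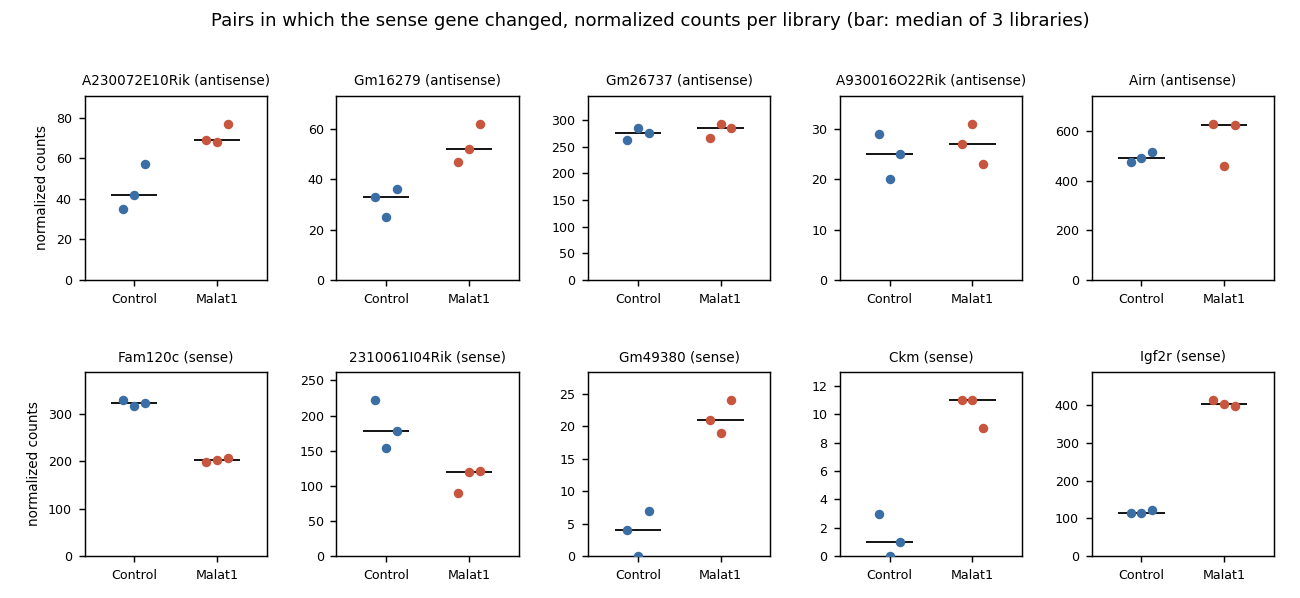
Each panel plots normalized counts (y axis, from 0) in the 3 LNA Control and the 3 LNA Malat1 libraries, with the antisense gene above and its sense partner below; bars are medians. In A230072E10Rik/Fam120c and Gm16279/2310061I04Rik the genes move apart, and in the other 3 pairs the sense gene is higher in LNA Malat1, as Igf2r at 397 to 413 against 114 to 123, while the antisense groups overlap.

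The other called partners are named after their values were seen. Dnah2, an axonemal dynein heavy chain, was at 772, 712, and 733 in LNA Control against 1401, 1229, and 1369 in LNA Malat1 (0.85 ± 0.06, adjusted p = 1.1e-06), and Dnah2os within it was at 98, 106, and 98 and at 82, 83, and 77. Both genes had separate groups and moved in opposite directions, with Dnah2os under the fold limit, and the antisense gene fell relative to Dnah2 by 1.16 ± 0.13 on the log2 scale (adjusted p = 2e-05). Exoc3l, Slc7a15, Bcas1, and Mtmr11 rose by 0.80 to 1.59 from LNA Control counts of 2 to 21, and Bcas1 and Mtmr11 lost their call in the fit that merged LNA Malat1 replicates 1 and 3. Bcas1 was also not called without any one of the LNA Malat1 libraries (1.14 to 1.93 over all 6 fits that left out a library), nor Mtmr11 without LNA Control replicate 2 or 3 or LNA Malat1 replicate 1 or 3 (0.58 to 1.03). Of the partners that fell, Nfib, a transcription factor of the nuclear factor I family, was at 3315, 3261, and 3258 and at 1919, 1957, and 1995 (-0.74 ± 0.05, adjusted p = 1.1e-06), and Gm11266 within it, at 105, 102, and 99 and at 108, 112, and 101, had overlapping groups. Eefsec, the elongation factor for selenocysteine, had the largest fall (-1.04 ± 0.11, adjusted p = 2.2e-05), beside Gm44264 at 0.13 ± 0.16. Tmem248, Prrc1, Macrod1, and Irf2bp2 fell by 0.65 to 0.86, and their antisense genes were at -0.15 to 0.34, none of them called.

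Pairs were grouped by how the genes lie to each other. Of the 244 pairs, 103 were head-to-head, with both starts in the overlap, 69 had the antisense gene embedded in the partner, 60 were tail-to-tail, and in 12 the antisense gene enclosed the partner. Of the 101 members with a head-to-head partner, 36 rose and 1 fell, with a median of 0.46, and of the 71 whose start lay within 1000 bases of that of the partner, 27 rose and 1 fell (0.48). Of the 60 tail-to-tail members, 20 rose and 1 fell, with a median of 0.49. Embedded members had 9 of 51 up and a median of 0.18, enclosing ones 3 of 10 and 0.32, and members without a partner 4 of 15 and 0.42. With quantile normalization the medians were 0.29 head-to-head, 0.27 tail-to-tail, -0.03 embedded, 0.25 enclosing, and 0.28 without a partner. The partners themselves had medians of 0.00 head-to-head, -0.02 tail-to-tail, -0.09 embedded, and -0.13 enclosing, and the difference between the classes was not tested. A member with several partners counts in each class it belongs to. In the 184 tested pairs with overlapping exons the antisense gene rose in 58, and in the 41 without in 4. These are counts of pairs, in which a member can repeat. BC037039, which was not called, alone stands in 19 of the 244 pairs.

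**Figure D5:**
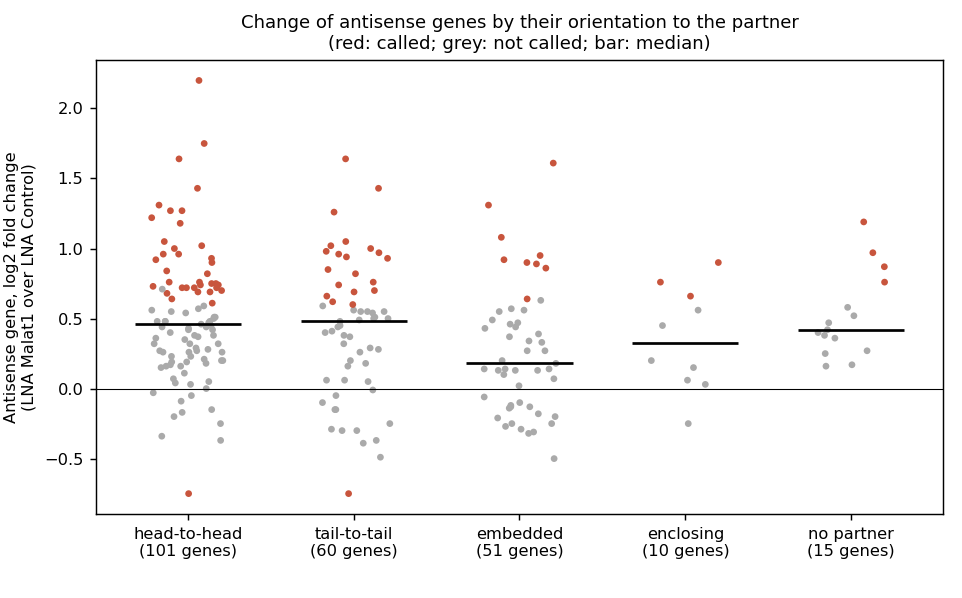
The y axis gives the log2 fold change of each antisense gene (LNA Malat1 over LNA Control) and the x axis its orientation to the partner; red points were called, grey points were not, and bars are medians. On the deposited values shown, medians are 0.46 head-to-head, 0.49 tail-to-tail, 0.18 embedded, 0.32 enclosing, and 0.42 without a partner. Each class with a partner holds points on both sides of 0.

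Genes that act on antisense and other unstable nuclear RNA were examined next. Of 24 listed genes of the nuclear exosome, its cofactors, and RNA editing, 23 were tested, 0 rose, and 1 fell (4.3%). The shares of all genes tested were 8.00% and 2.92%, and the list median was -0.06 beside 0.02. Among protein-coding genes with a mean of at least 20, 3.9% rose and 3.7% fell, with a median of -0.03. At an unadjusted limma p under 0.05, 3 were higher and 6 lower. The fall was that of Adarb1, an adenosine deaminase that edits double-stranded RNA, at 627, 546, and 553 in LNA Control against 304, 293, and 341 in LNA Malat1. Its groups did not overlap (-0.88 ± 0.07, adjusted p = 3.7e-06). Its relative Adar was at 866, 783, and 703 and at 942, 920, and 977, higher in each library and under the fold limit (0.28 ± 0.07, adjusted p = 0.011). Among genes of the exosome and its cofactors, Exosc8, a core subunit, was at -0.49 ± 0.06 (adjusted p = 7.6e-05). Tent4a was at -0.30 ± 0.05 (adjusted p = 0.0011) and the helicase Mtrex at -0.26 ± 0.05 (adjusted p = 0.002). Higher were Zfc3h1, which links polyadenylated nuclear RNA to the exosome, at 0.44 ± 0.07 (adjusted p = 0.00064), and Exosc9 at 0.18 ± 0.06 (adjusted p = 0.04). All of these stayed under the fold limit. The catalytic subunits Dis3 and Exosc10 were at -0.12 ± 0.06 and 0.06 ± 0.05.

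Genes named as opposite-strand transcripts were taken whatever their biotype and level. Of the 80 noncoding genes tested whose symbol ends in os or as1, with or without a number, or that are widely known cis antisense RNAs, 3 rose (3.8%) and 0 fell, beside 8.00% and 2.92% of all genes tested, with a median of 0.28, and at an unadjusted limma p under 0.05, 19 were higher and 4 lower. The 3 are all members: Mccc1os, Rsf1os2, and Zbtb11os1. Zbtb11os1, which starts opposite the zinc finger gene Zbtb11 (0.13 ± 0.05), was at 45, 40, and 48 and at 80, 68, and 58 and rose by 0.61 ± 0.15 (adjusted p = 0.011). It was not called without LNA Control replicate 2 (0.54) or LNA Malat1 replicate 1 (0.50). The 53 that are not members, being of another biotype or under the level limit, had a median of 0.30, and 0 were called in either direction, with 9 higher and 2 lower at an unadjusted limma p under 0.05. With quantile normalization the median was 0.04 for the 80 and -0.03 for these 53.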

How the data were processed

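Total RNA of HL-1 cells was sequenced in 3 LNA Control and 3 LNA Malat1 libraries. Per the study's methods, the authors trimmed the single-end reads with Trimmomatic 0.39, aligned them to mm10 with STAR, counted reads touching exons per gene with featureCounts 1.6.5, and excluded reads on more than 1 gene or place. The deposited values are a score rather than raw counts: each count was divided by a factor of its library by the authors and rounded, and these are the normalized counts given here. Models for raw counts were therefore not used, and the authors' DESeq2 results were not used. The strand setting of the counting is not given in the sources used here. Recovered factors put 4512256 to 5592995 reads on genes per library.

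Genes with a mean of at least 5 were fitted with limma 3.58.1 (R 4.3.3; lmFit, eBayes with trend, two-sided) on log2(normalized count + 1), so fold changes of weak genes are understated, with Benjamini-Hochberg adjustment over all 15650. For pairs, log2(antisense + 1) minus log2(sense + 1) of each library was fitted over all 2209 opposite-strand overlapping pairs of tested genes. The scripts were tested on simulated data. Coordinates are those of the table, 21036 of whose genes have the same position in GENCODE M21 (GRCm38), which supplied exons. Named genes are Malat1, the 10 called members of largest change with separate groups, the 5 of highest mean, pairs with both genes called, the 5 called pairs of largest difference, those next to the limit, and called genes of the 2 lists, with partners; others are marked in the text. From the opposite-strand names, 34 protein-coding genes with such endings were left out. The members and lists were chosen with earlier results of these data known. No mean ± SD is given, since LNA Malat1 replicates 1 and 3 agree within sampling noise over all genes, and ± marks the standard error of the fit. Alternatives are given in the closing section.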

Additional observations from a re-analysis of the deposited data

How the results depend on the processing

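The counts of members (60 higher, 1 lower), partners (8 and 8), and pairs (83 and 8) stayed within 1.5 times of these values with pseudocounts of 0.1 or 5, median-of-ratios scaling, equal library totals, no level filter, and LNA Malat1 replicates 1 and 3 as 1 sample, which gave 52 members higher. Quantile normalization gave 39 members higher and 5 lower, 13 partners lower, and 54 pairs higher; the cause was not tested. Testing only genes with a mean of at least 50 left fewer genes, with 18 members higher, 2 partners higher, and 26 pairs higher and 2 lower, and members with a mean of at least 50 also had 18 higher. Antisense genes chosen by an LNA Control mean of at least 20, an alternative added after seeing the data, had 41 higher and 1 lower. Without the fold minimum 3 members were lower (6 at an unadjusted limma p under 0.05), and 31 partners were higher and 44 lower. With a 2-fold minimum 18 members were higher and 0 lower, 1 partner was lower, and 28 pairs were higher. Pairs with at least 50% of the antisense gene overlapped had 4 partners lower and 27 pairs higher, and those without exonic overlap 2 partners higher, 3 lower, and 9 pairs higher and 2 lower, both from fewer pairs. Leaving out each library gave 47 to 73 members higher and 1 lower, 6 to 9 partners higher and 8 to 12 lower, and 62 to 87 pairs higher and 6 to 10 lower. With the replicate block, 61 members were higher and 1 lower, 88 pairs higher and 9 lower, and 8 partners each way. Libraries of the same number correlated by 0.086, 0.182, and 0.083 in their deviations over 10490 genes, and those of different number by -0.189 to 0.046. Each library thus correlated best with its own number, a hint of pairing from the data, but the labels do not say what a number marks. For the 41 named genes, 521 of 533 single-gene values kept direction and call, 9 lost a call, and 3 moved; none of the called values reversed. The correlation over pairs ran from -0.05 to 0.17. At means of 20 to below 50 normalized counts, 46 of 126 members passed the adjusted p and 42 of these also the fold minimum.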
